A study of Salmo salar with 59 samples.

Results

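The set described here holds 100 of the 42386 probes of a salmon microarray, chosen by how alike their level in a fish was in its testis and its pituitary. A level here is log2 of the processed signal set against the 75th percentile of its array, so that 0 is the level of a bright probe and a step of 1 is a factor of 2. In the 17 fish used, each probe was centred on the pubertal and the immature mean within each tissue, probes with a standard deviation (SD) over 0.4 in both tissues were kept, which left 22794, and the 100 with the highest Pearson correlation between the tissues were taken. The correlation and the 2 SDs therefore chose the members and are given as description, with no test. Adipose tissue was not used in the choice.

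The study reared farmed male Atlantic salmon post smolts from a breeding nucleus for 18 weeks in brackish water (20 ppt, 12.1 °C). Of the 4 groups used here, group A had continuous light, B increasing light, and D and E decreasing light. Group E was also fed a low-fat diet. RNA of single fish was hybridised to 59 one-colour arrays, 20 of testis, 20 of pituitary and 19 of adipose tissue. Fish with testes at stage I were immature and those at stages III to V pubertal. The 17 fish of the set were 4 pubertal fish (2 of group A and 2 of group B) and 13 immature fish (1 of A, 2 of B, 5 of D and 5 of E). Pubertal fish came from A and B alone, so maturity and light regime are confounded in part. Adipose arrays were at hand for 15 of them, 4 pubertal and 11 immature.

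A one-colour array reads a transcript through a short oligonucleotide that is fixed to the glass. The signal depends on how much of the transcript the tissue holds and on how well its sequence pairs with the oligonucleotide, and the files cannot tell the 2 apart. Puberty in male salmon is driven by the gonadotropins of the pituitary, which start sperm formation in the testis, and adipose tissue stores the energy that maturation draws on. The salmon genome is duplicated, and a probe can also read a close copy of its gene, which was not tested. In a whole tissue, fewer cells of a type and less RNA per cell cannot be told apart.

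By their median levels the tissues carried their own markers. The 5 pituitary markers measured (hormone genes such as prl and lhb) had a median level of 6.89 in the pituitary and -3.51 in the testis, and the 6 testis markers 4.05 in the testis and -6.96 in the pituitary. In adipose tissue the fat droplet protein plin1 stood at 7.62 against 1.07 in the testis, while fabp4 did not stand above the testis (3.50 and 4.17). The pituitary and testis markers had medians of -6.32 and -3.75 there. Their highest adipose values were 5.53 for pomca, 4.115 for prl, 4.22 for ddx4 and 2.59 for amh, but only -3.24 for smtlb and -3.85 for dazl. Some adipose arrays thus read markers of another tissue, and the reason was not tested. The haemoglobin gene hba was bright in all 3 tissues (5.32 in testis, 6.33 in pituitary, 7.84 in adipose tissue). Between 65.6% and 86.6% of the probes were well above background on the testis arrays of the set, 69.5% to 84.3% on the pituitary arrays and 55.1% to 77.6% on the adipose arrays, and no spot was saturated. Replicates were separate fish.

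Some arrays went against their labels. The rule left out 3 fish and was written with earlier results of these data in view. Over the 200 probes that follow the 100 in the order of correlation, each of the 17 pituitary arrays resembled the testis of the same fish most, as the choice of those probes would give. Adipose tissue had no part in that choice, and 13 of the 15 adipose arrays resembled the pituitary of the same number most and 11 the testis of the same number. The other 2 adipose arrays lay nearest to another fish in both comparisons, at correlations of 0.342 or more in the pituitary against 0.263 or less with their own. A group E adipose array whose number matches no group E testis also lay nearest to a fish of another group. The main counts that rest on adipose tissue are given with and without the 2 arrays of the set, and other adipose values include them unless said. Leaving them out was decided on probes like the members, so the larger counts without them are no independent support.

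The 100 correlations lay between 0.878 and 0.988 with a median of 0.925, where all 22794 probes past the SD limit had a median of 0.068. The members just inside the limit had 0.879, 0.878 and 0.878 and the probes just outside it 0.878, 0.877 and 0.877, so the limit falls in a continuous order. Testis and pituitary RNA of the same fish never shared a slide, and 8 of the 17 pairs were scanned in the same batch.

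Of the 100 members, 60 matched a gene of the Ssal_v3.1 assembly (59 genes, ileu with 2 probes), and 32 of the 60 carried a gene symbol rather than a locus number. Among all probes 60.5% matched a gene. The genes lay on 25 chromosomes, at most 6 of them on 1 chromosome (chromosome 20). Only the 60 members with a gene had a position, and 69 pairs of them lay on the same chromosome. Of these pairs 4 lay within 2 Mb, a count with no share over all probes beside it. Apart from the 2 ileu probes these close pairs correlated over the fish at 0.43, 0.14 and -0.13. The named genes have many roles. The set includes the ubiquitin-conjugating enzymes ube2a and ube2n and the cullin 3 adaptor klhl20, the nucleolar proteins npm (nucleophosmin) and nop56, and the RNA polymerase III subunit rpc8. It also holds genes of the mitochondrion (mrps34 of the small ribosomal subunit, the poly(A) polymerase mtpap, the complex III assembly factor uqcc5 and the cristae protein chchd6a), the peroxisome gene pex26 and the Golgi SNARE bet1. The telomerase subunit tert, the steroid 5-alpha-reductase srd5a1, the vitamin K epoxide reductase vkorc1, the sugar transferase rxylt1, the serpin ileu, the phosphatase dus14, the Bax inhibitor bi1, the chemokine receptor ccr9a and the receptor gpr171 are members too. The remaining symbols are kcd17, srfbp1, par10, capsla, ephx5, fxyd6l, lim2.1, ftr82, hdhd2 and rtp3.

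Members were absent from the gene lists that were looked at. With 100 members among 22794 probes past the SD limit, lists this short would seldom hold a member. None of the 3 circadian clock probes passed that limit, so none of them could be a member. None of the 3 measured probes of the circadian clock list, the 3 of the glucocorticoid and nutrition list, the 6 of the interferon list, the 13 of the antigen presentation list or the 14 of the glutathione and detoxification list was a member, and neither was any of the 2 red blood cell or 6 leukocyte probes. The probes of these lists that passed the SD limit had median correlations of 0.48 (glucocorticoid and nutrition, 3 probes), 0.30 (interferon, 5 probes), 0.43 (red blood cells, 2 probes), 0.20 (leukocytes, 5 probes), 0.06 (detoxification, 4 probes) and -0.01 (antigen presentation, 3 probes, of which ubash3ba and ubald1a were caught only by their first letters), beside 0.068 for all probes. The highest of them were hba at 0.623 and the antiviral gene isg15 at 0.604, below every member. Array quality was set beside the members as well. The share of probes well above background on the array correlated beyond 0.5 in size with 9 of the 100 members in the testis, where it did so with 30.6% of all probes past the SD limit, and with 1 member in the pituitary, against 17.9%.

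Members varied widely between fish. The range over 17 fish was 2.12 to 12.3 in the testis with a median of 4.73, and 1.31 to 13.4 in the pituitary with a median of 4.05, where all probes past the SD limit had medians of 3.43 and 2.63. A range over 4 was reached by 66 members in the testis and 50 in the pituitary (33.1% and 13.4% of all probes). The median SD of centred levels was 1.34 in the testis and 1.23 in the pituitary, and 0.70 and 0.66 among all probes. The rule asked for an SD over 0.4, and its choice by correlation can itself favour a wide spread. The wider spread of the members is therefore description only. In level the members were of middle brightness, with a median of -1.43 in the testis and -1.33 in the pituitary, and the whole array had -3.07 in the testis and -3.0 in the pituitary. In each of the 2 tissues every member was well above background on at least 1 array. On all 34 testis and pituitary arrays 55 of them were, so for the rest the lower end of the range can be set by background.

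Many members fell into separate low and high fish. A probe was called split in a tissue where the largest gap between neighbouring fish, with 2 or more fish on each side, was at least 1 and at least 0.4 of the range. On levels centred on maturity, 17 members were split in the testis and 29 in the pituitary, and 12 were split in both with the same fish on each side, where the same was true of 14 of the 22794 probes past the SD limit (0.0614%). Centring moves pubertal and immature fish against each other and can close a gap. In the uncentred levels of the 13 immature fish, a choice made after seeing the data, 52 members were split in the testis and 52 in the pituitary, and 38 were split in both with the same fish on each side, against 44 of all 22794 (0.193%). In 10 members adipose tissue was split between the same fish as well (0.0526% of all probes), and in 22 of the 38 without the immature adipose array that lay nearer to another fish. These counts follow in part from the choice by correlation and carry no test. The bimodality coefficient is 0.556 for a flat distribution and rises with 2 peaks, but also with skew or a few outlying fish. It lay above that value in both tissues in 35 members, against 0.619% of all probes. A pass does not by itself show 2 peaks, as in dus14, which had 0.748 in the testis with 2 low immature fish.

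The level of dus14, a dual specificity phosphatase on chromosome 9 (bases 126653510 to 126654332), was the most alike in the 2 tissues, at a correlation of 0.988. Its level in the testis was lowest at -6.72, with a median of 0.20 and a highest value of 1.32, and in the pituitary -7.59, 0.02 and 1.16. In the immature fish 2 stood at -6.72 and -6.26 in the testis and -7.59 and -7.20 in the pituitary, and the other 11 lay between -0.48 and 0.90 and between -0.49 and 1.16. The 4 pubertal fish were on the high side, and the low fish were well above background on 1 of their 4 arrays. For npm, which encodes the nucleolar chaperone nucleophosmin (chromosome 11, bases 88072680 to 88077073), the lowest, median and highest levels were -8.47, 2.89 and 3.71 in the testis and -4.57, 2.53 and 3.67 in the pituitary. Here 2 immature fish and 1 pubertal fish were low in both tissues, and the highest low immature fish was 7.40 below the lowest high one in the testis and 4.94 below it in the pituitary. The 2 low immature fish were well above background on 1 of their 2 testis arrays and on both pituitary arrays.

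Genes without a symbol had gaps as wide. LOC106581450 (chromosome 20, bases 86228421 to 86232485) had a lowest level of -8.96, a median of 2.07 and a highest level of 3.16 in the testis, and -8.14, 3.48 and 5.26 in the pituitary. In the immature fish 6 lay between -8.96 and -4.58 in the testis and 7 between 2.07 and 3.16, and the same 6 lay between -7.56 and -5.63 in the pituitary and the same 7 between 3.48 and 5.26. LOC106573732 (chromosome 16, bases 31473872 to 31479439) was low in 3 immature fish, at -4.90 to -3.27 (testis) and -5.16 to -3.64 (pituitary), and 10 stood at 1.34 to 2.96 and -0.28 to 1.57. A probe without a matched gene, XM_014185714.1, was low in 6 immature fish (-7.42 to -5.66 for testis, -8.65 to -6.49 for pituitary) and high in 7 (0.01 to 1.51 and 0.36 to 2.14). Its 6 low fish were well above background on 1 testis array and 0 pituitary arrays. The 6 low fish of LOC106581450 were so on 1 testis array and 2 pituitary arrays. The width of these gaps therefore depends in part on the background. In srd5a1, the enzyme that reduces testosterone to a stronger androgen in mammals (chromosome 27, bases 22501929 to 22510016), the few were high instead. Its median was -4.74 in the testis and -5.48 in the pituitary, with a highest value of -0.53 and 0.09, and 1 immature and 1 pubertal fish made up the high side in both tissues.

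The 38 members split in the immature fish did not divide the fish in 1 way. They gave 31 different divisions of the 13 fish, 5 of which were shared by 2 or 3 probes, the 2 probes of ileu among them. The smaller side held 2 to 6 fish, 2 fish in 10 members and 5 or 6 in 15 members. The low side was the smaller one in 27 members and the larger one in 11. Each of the 13 fish was on the smaller side of between 7 and 16 of the 38 members, with a median of 11. The difference between the means of the high and the low side was 1.85 to 9.88 in the testis (median 3.81) and 1.67 to 10.8 in the pituitary (median 3.95). In 6 of the 38 the low side was not well above background on any testis or pituitary array, while the high side was on all. The size of the difference there depends on the background and is not a measured step. In 17 both sides were well above background on every array. The other 15 were mixed, and there the size of the difference can depend on the background too.

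The other members of the 20 with the highest correlation follow, most of them split in the immature fish. LOC106612444, tert, par10 and XM_014180438.1 were not. ube2a, the enzyme that loads ubiquitin for histone H2B (chromosome 5), had levels of -3.92, -0.03 and 2.73 (lowest, median, highest) in the testis and -5.40, -1.31 and -0.27 in the pituitary. In the immature fish 6 stood at -3.92 to -3.38 and 7 at -0.03 to 0.60 in the testis, with no value between. mrps34 ranged from -5.23 over -3.36 to 1.98 in the testis and from -4.74 over -3.96 to 1.09 in the pituitary, with 7 immature fish low and 6 high. kcd17 ranged from -1.49 over 0.39 to 1.55 and from -1.32 over 1.49 to 2.01, with 5 immature fish low. Both sides of ube2a were read in the testis, where all 17 arrays were well above background.

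srfbp1, a binding partner of serum response factor, was dim, at -7.84, -6.19 and -1.42 in the testis and -7.81, -6.60 and -2.46 in the pituitary, and was well above background on 7 and 8 of the 17 arrays. The probes of ileu, a serpin that inhibits neutrophil elastase in mammals, gave nearly the same values, with -2.51, 0.54 and 1.54 for one and -2.58, 0.63 and 1.64 for the other in the testis, and -1.35, 1.08 and 2.27 and -1.37, 1.08 and 2.24 in the pituitary. LOC106605600 stood at -3.13, -2.28 and 0.92 in the testis and -2.62, -1.94 and 1.5 in the pituitary, and LOC106584200 at -4.79, -1.68 and -0.81 and -3.70, -0.88 and 0.14. tert, the catalytic subunit of telomerase, ran from -8.62 over -3.50 to -2.56 and from -8.89 over -3.12 to -2.22. par10 spanned less, from -3.92 over -2.24 to -1.10 and from -4.16 over -1.85 to -0.84.

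The probes XM_014176302.1, XM_014185484.1, AKR04128.1_4 and XM_014180438.1 had no matched gene. Their testis medians were -0.69, -1.99, -3.59 and -0.33 and their pituitary medians -1.75, -0.44, -3.46 and 0.34. Their testis values spanned -4.76 to 0.32, -6.96 to 0.19, -8.52 to -2.17 and -2.94 to 0.88, and the first 3 split the immature fish as 4 to 9, 6 to 7 and 4 to 9.

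Among the other split members with a symbol, capsla, a calcyphosine-like protein, had 2 low immature fish at -4.93 and -4.62 in the testis against 0.65 to 2.97, and at 1.44 and 1.66 in the pituitary against 3.89 to 5.75. uqcc5, which assembles respiratory complex III, also had 2 low fish, at -3.58 and -3.03 against -0.28 to 0.81 in the testis. ephx5 divided the fish as 6 low to 7 high (-1.07 to -0.41 against 0.998 to 2.40), and the FXYD family member fxyd6l as 3 to 10 (-0.50 to -0.20 against 1.22 to 2.41). These sides were well above background on every array, so both were measured.

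In the ubiquitin enzyme ube2n few fish were high, with 2 immature fish at 1.64 and 1.84 in the testis and 11 between -2.71 and -1.44, and in the pituitary at 1.73 and 2.22 against -2.33 to -0.97. klhl20 and rpc8 were low in the same 2 fish. In klhl20 these stood at -5.12 and -4.89 in the testis against -3.56 to -2.07, and in rpc8 at -1.28 and -1.15 against 0.24 to 1.23. ccr9a was low in 5 fish (-1.75 to -0.92) and high in 8 (from 0.79), and its pituitary values left a gap between -1.16 and 0.95.

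In 3 members the correlation rested on 1 fish. Without that fish it fell to 0.17 for S35528745, 0.39 for LOC106584548 and 0.47 for XM_014151199.1, and no other member fell under 0.5 whichever fish was left out. Of all probes past the SD limit 96.7% had, or fell to, a value under 0.5. LOC106612444 (chromosome 9) was lowest at -8.47 in 1 immature fish in the testis, with a median of 0.73 and a highest level of 3.87, and at -8.18, 0.08 and 1.14 in the pituitary. Its correlation of 0.980 was 0.69 without 1 fish.

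Members were seldom alike among themselves. The median correlation over the fish between 2 members was -0.01, and 12 of the 4950 pairs, made of 17 probes, exceeded 0.9. The most alike were the ileu probes (0.999), a trio of probes without a gene (XM_014185714.1, XM_014185484.1 and XM_014198297.1, at 0.98 to 0.99), XM_014182591.1 with XM_014189137.1 (0.98) and AKR04128.1_4 with XM_014188770.1 (0.98). LOC106612444 and LOC106584548, on chromosomes 9 and 23, reached 0.93, and they share the fish in which both are far below the rest. LOC106573732 and LOC106574496, far apart on chromosome 16, reached 0.91. The most opposed pair was the chemokine receptor ccr9a and XM_014140481.1 at -0.89, which divide the 13 immature fish at the same place with high and low exchanged.

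Light group accounted for a share of 0.029 to 0.911 of the variance of the fish pattern among the 13 immature fish, with a median of 0.252 over the members and 0.27 over all probes past the SD limit. It passed 0.5 in 9 members and in 12.9% of all probes. The highest share, in the G protein-coupled receptor gpr171, came from the single immature fish of group A, at -2.06 in the testis, where the others lay between -6.05 and -4.70. The next named member was mrps34. In the testis its 5 group E fish lay between -5.23 and -4.24, and the 5 group D fish between -4.22 and 0.17 with a median of -0.07. LOC106605600 had the same arrangement, with the 5 group E fish between -2.96 and -2.46 and those of D between -2.80 and 0.59. Groups D and E both had decreasing light and differed in diet, so a share by light group takes in diet as well. These arrangements were picked among 100 members after their values were seen and were not tested.

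Adipose tissue gave a further reading of the same fish that the rule had not used. Its level was correlated over 15 fish with the mean of the centred testis and pituitary levels. The members had a median correlation of 0.740, with a lowest value of -0.283 and a highest of 0.989, and 78 of the 100 were over 0.5 and 36 over 0.8. All probes past the SD limit had a median of 0.047, and 0.496% of them were over 0.8. Without the 2 arrays that lay nearer to another fish the members' median was 0.854, with 61 members over 0.8 (1.01% of all probes). The range of the members in adipose tissue had a median of 4.09, where all probes past the SD limit had 3.40.

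A regression of the adipose level on that mean, with maturity as a covariate, was fitted to every probe well above background on at least 4 adipose arrays. Of 33299 probes tested 84 had a slope above 0 at an adjusted p under 0.05 (0.252%), and 0.544% of those past the SD limit did. Of the 95 members tested 32 did, and the slope was above 0 in 89 of them with a median of 0.71 against 0.16 over all probes. Without the 2 arrays 49 members passed, where 0.422% of all probes did, and 29 members passed both ways. A slope of 1 means that adipose tissue differed between fish by as much as the other tissues. P-values here are two-sided, from a linear model with limma's moderated variance, with Benjamini-Hochberg adjustment over all probes tested, and cover the spread between the 15 fish. The count fell to 20 without 1 fish of light group D, and to 12 within scan batch 2, fitted with no maturity term.

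The probe GRASP223672662, with no matched gene, had the lowest p. Its adipose levels ran from -7.24 over a median of 2.14 to 3.35, and its slope was 1.13 (SE 0.04, adjusted p = 4.731e-09, limma) and 1.14 without the 2 arrays. In the authors' table the slope was 0.20 (SE 0.99, adjusted p = 0.9719), and the call was lost there. In the immature fish the 3 with low testis levels (-8.81 to -7.58) included 2 with an adipose array, at -7.24 and -6.81, and the 9 others lay between 1.81 and 3.35. For ube2a the adipose levels ran from -4.53 over -0.49 to 0.93 and the slope was 1.04 (SE 0.06, adjusted p = 4.862e-07), and 1.02 without the 2 arrays. The 5 immature fish that were low in the testis and had an adipose array lay between -4.19 and -3.78 and the 6 high ones between 0.23 and 0.93, so the groups did not overlap in any of the 3 tissues.

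LOC106573732 had an adipose slope of 0.78 (adjusted p = 2.04e-06) and XM_014176302.1 a slope of 1.25 (adjusted p = 2.853e-06), and in both the low and high immature fish of the testis were apart in adipose tissue too, at -4.39 to -3.43 against -0.62 to 1.30 and at -6.66 to -5.54 against -1.72 to 0.36. The slopes of LOC106612444 (0.90, adjusted p = 3.032e-06) and LOC106584548 (0.98, adjusted p = 8.171e-05) missed the threshold without the 1 fish that was low in all tissues. There the slopes were 0.96 (SE 0.30, adjusted p = 0.4795) and 0.84 (SE 0.29, adjusted p = 0.5858), so the error grew more than the slope moved. The dim probe srfbp1 had a slope of 0.75 (adjusted p = 8.171e-05), XM_014180438.1 a slope of 1.80 (1.52 without the 2 arrays), ube2n a slope of 0.86 and the peroxisome gene pex26 a slope of 1.005. Of 29 settings tried, ube2n and pex26 each passed in 26, with adjusted p up to 0.4378 and 0.9995. Their slopes fell as low as 0.51 and 0.40. The slope of dus14 was 0.41 (SE 0.05, adjusted p = 0.001041), and its 2 low immature fish stood at -3.38 and -2.33 in adipose tissue against -0.62 to 0.70 for the rest, a smaller step than in the testis. In the authors' table the calls of srfbp1 (0.75, adjusted p = 0.09849), dus14 (0.17, adjusted p = 0.8292) and LOC106612444 (1.06, adjusted p = 0.2278) were lost.

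The other named members with a slope past the threshold were kcd17 (0.70), both ileu probes (0.78 and 0.78), par10 (0.91), mtpap (0.81), ftr82 (0.75) and nop56 (0.89). The ileu probes passed in 12 and 16 of the 29 settings tried, with adjusted p up to 0.3549 and 0.2983, and nop56 did not pass without the 2 arrays (adjusted p = 0.0588). Several of the most alike members did not pass. mrps34 had a slope of 0.41 with an adjusted p of 0.484, and without the 2 arrays its adjusted p was 1.381e-05. In npm, 1 of the 2 low immature fish had an adipose array, at -8.03 against 1.51 to 3.54 in the others, and the adjusted p was 0.2503 (0.0015 without the 2 arrays). srd5a1 (0.75, adjusted p = 0.1846), tert (0.44, adjusted p = 0.6006) and the chemokine receptor ccr9a (0.43, adjusted p = 0.7744) missed the threshold as well.

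Among the 38 split members the low and high immature fish of the testis did not overlap in adipose tissue in 22. Without the immature adipose array nearer to another fish they did not overlap in 32. For comparison, probes with no missing testis or pituitary value were cut at their largest testis gap, whether split or not. The same was then true of 44 of 98 members (62 of 97 without that array) and of 3.17% of all probes past the SD limit (4.32%). It was true of 25 of the 419 other probes that were split in the testis. A side could hold only 1 adipose fish, as in npm, klhl20, rpc8, ube2n and XM_014183466.1. The sides could also lie close, as in AKR04128.1_4 (-6.164 against -6.157) and uqcc5 (-2.459 against -2.397). The mean of the high fish was above that of the low fish in adipose tissue in 36 of the 38, by a median of 2.79, and again in 36 without the array nearer to another fish. In LOC106584200 the order was turned. Its 3 low immature fish in the testis lay between -4.21 and -4.02 and the 10 others between -1.72 and -0.81, and in adipose tissue the 2 low fish with an array stood at 3.44 and 3.59 and the 9 others between -2.19 and -1.23. The fish at 3.44 is the one whose adipose array lay nearer to another fish. The adipose slope of LOC106584200 was -0.68 (SE 0.61, adjusted p = 0.9100), and -0.37 (adjusted p = 0.9522) without the 2 arrays. In the authors' table the same regression gave -1.65 (SE 0.32, adjusted p = 0.04836). A slope below 0 was not counted as following the fish.

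Maturity was compared next. In the testis 29 of the 99 members tested differed between pubertal and immature fish (limma, adjusted p under 0.05 and a difference over 0.8), 17 higher and 12 lower in pubertal fish, where 60.9% of the 36191 probes tested did (34.9% higher and 26.0% lower). The rule removed the maturity means before it ranked the probes, and a wide spread between fish of a group raises the error of the difference. The median difference over the members was 0.05 and over all probes 0.38. The groups did not overlap in 3 of the 29, which were LOC106612444, rxylt1 and chchd6a, where 33.5% of all probes tested were called with no overlap. chchd6a, a protein of the mitochondrial cristae, stood at 2.19, 2.46, 2.60 and 2.75 in the pubertal testes and between -0.65 and 1.78 in the immature ones, a difference of 1.94 (SE 0.31, adjusted p = 2.545e-05). rxylt1, a sugar transferase that acts on dystroglycan, stood at 2.92, 3.16, 3.21 and 3.38 against 0.97 to 2.36, a difference of 1.57 (SE 0.27, adjusted p = 6.134e-05).

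Of the other named members, ube2n was higher by 2.85 in pubertal testes (SE 0.89, adjusted p = 0.008259), yet its 4 pubertal values were -1.02, -0.28, 3.70 and 3.72, so the 4 fish lay in 2 pairs. bi1 was higher by 0.92 (adjusted p = 0.01527). kcd17 fell by 1.46 (adjusted p = 0.01975), with 3 pubertal fish between -1.49 and -1.04 and one at 0.39, and the finTRIM family member ftr82 fell by 1.84 (adjusted p = 0.03549). In both the pubertal values lay within or beside the range of the immature fish, which was -0.98 to 1.55 and -3.83 to 0.65.

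In the pituitary no member of the 98 tested differed by maturity, where 0.507% of 35286 probes did (0.445% higher and 0.0623% lower in pubertal fish). At an unadjusted p under 0.05 and a difference over 0.8 there were 7 members (1.93% of all probes), and the methods' t-test without adjustment gave 5 (1.75%). The maturity difference in the testis minus that in the pituitary was past the threshold in 14 of 100 members, 8 above 0 and 6 below it, against 52.5% of all probes (30.4% above and 22.1% below). Of these 14, 13 had also differed in the testis, and this fit did not pair the 2 tissues of a fish. In adipose tissue light groups D and E, which differed in diet, gave 0 of 92 members and 0 of 30501 probes (0.0%), with 13 members at an unadjusted p under 0.05 and a difference over 0.8 (13.8% of all probes). Without 1 group E fish 4 members passed (3.91% of all probes), and without the arrays nearer to another fish 0 did (0.15%).

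The mean level in immature fish was compared between the 2 tissues as well. Between testis and pituitary 26 of the 96 members tested differed, 16 higher in the testis and 10 lower, where 50.7% of all probes did (22.9% higher and 27.8% lower). That fit did not pair the 2 tissues of a fish, though the members were chosen for their likeness across them. Leaving out the pairing raises the error of such probes, with an SE of 1.02 for dus14 against 0.13 with the fish as a block. The 26 beside 50.7% therefore depends in part on the fit. With the fish as a block 42 members differed (29 higher, 13 lower), where 50.8% of all probes did.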

How the data were processed

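Testis, pituitary and adipose RNA was hybridised by the authors to one-colour Agilent arrays, and the deposited scanner files hold processed signal intensity from Agilent Feature Extraction 12.0.1.1, per the file headers, which is background-corrected and not scaled between arrays. The series table deposited by the authors holds intensity rounded to whole numbers with scaling not given in the sources used here, and served only as an alternative. From the scanner files log2 of the processed signal was taken, control spots were left out, spots of 1 probe were averaged and the 75th percentile of each array was subtracted. Groups came from the sample labels, with fish numbers as printed there. In 1 testis array a label field gives another fish's number than its title, and the title was used.

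The members and the gene lists were chosen with earlier results of these data known. Members with a gene symbol were named. The 20 with the highest correlation, the 10 with the lowest p in adipose tissue and 6 split examples were described with values. Genes were taken from the RefSeq annotation of Ssal_v3.1, and no sequence was read.

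Comparisons used limma 3.58.1 in R 4.3.3, over probes that were well above background on no fewer arrays than there were in the smaller group, with an adjusted p under 0.05 and a difference over 0.8. The adipose regression needed no minimum slope. The fits were tested on simulated data. Other steps used Python 3.11.15 with pandas 2.3.3. By their labels, same-numbered testis and pituitary arrays come from the same animal. Over the 42286 probes outside the set their deviations from the group means correlated at -0.146 to 0.2 with a median of 0.065, over 0.1 in 6 of 17 fish. Alternatives were other background corrections and scalings, the authors' table, other fish, scan batch, slide, fish as a block and leaving out single fish. The number of arrays limits the precision.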

Additional observations from a re-analysis of the deposited data

Results flagged for a closer look

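Of 100 groups of 4 or 5 fish looked at (25 members in 4 groups each), 25 held a fish far from the others by Dixon's criterion, in 15 members. Chance flags about 1 in 20 groups of probes that were not selected, but these members were picked by correlation, adipose p or gap. The rule also used their testis and pituitary values. The count is therefore description only, with no share over all probes beside it. In the pubertal testes the lowest fish stood at -6.79 for XM_014185714.1, -5.97 for LOC106573732, -7.38 for npm and -3.96 for pex26. In the pubertal pituitaries the lowest stood at -7.98 for XM_014185714.1, -5.78 for XM_014176302.1, -3.62 for LOC106584200, -4.97 for LOC106573732 and -4.57 for npm. The highest pubertal pituitary was apart at 1.09 for mrps34 (others -4.39 to -4.35), -0.38 for GRASP223672662 and -0.062 for srd5a1.

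In adipose tissue of light group D the lowest fish was apart at -2.68 for mrps34, -7.62 for LOC106612444, -6.16 for AKR04128.1_4, -4.39 for LOC106573732, -8.03 for npm, -3.54 for XM_014180438.1, -6.81 for GRASP223672662, -3.16 for pex26 and -2.22 for LOC106584548. The highest fish was apart at -3.52 for srfbp1 and -0.68 for srd5a1. In light group E the lowest adipose value was apart at -6.59 for LOC106581450 and -4.18 for GRASP223672662. The -4.18 was read on the array with no testis array of its number, which lay nearest to a fish of another group. The -6.59 was read on another array of group E. The values it lay apart from included 4.41 on the array with no testis array of its number. They also included 4.81 on the group E array of the set that lay nearer to another fish.

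The difference between pubertal and immature fish was not the same in testis and pituitary in 14 of the 100 members. The limits were an adjusted p under 0.05 (limma interaction) and a difference over 0.8. Of all probes tested 52.5% passed them. The rule used these testis and pituitary values, and a wide spread between fish of a group raises the error of the difference. The fit also did not pair the 2 tissues of a fish. The lower share in the set is therefore description only. The testis difference minus the pituitary difference was 1.39 for rxylt1, 2.06 for LOC106570057, 1.19 for XM_014176215.1, 1.86 for LOC106598202, 1.09 for bi1, 2.14 for LOC106580315, 1.64 for chchd6a and 1.39 for LOC106612459. It was -2.97 for LOC106567951, -3.21 for XM_014153195.1, -1.81 for XM_014143391.1, -1.27 for XM_014202961.1, -2.86 for LOC106609411 and -4.55 for the receptor transporter rtp3.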

How the results depend on the processing

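The members depend on the processing. Of the 100, the same rule kept 54 after normexp background correction, 46 in the authors' table and 61 over all 20 fish. It kept 66 without light groups A and B and 53 with Spearman's correlation. Among probes well above background on all arrays it kept 55, which were all the members that passed this filter. Leaving out 1 fish kept 85 to 95. The count of members following the fish in adipose tissue (32) was 19 with normexp, 20 in the authors' table, 21 with light group in place of maturity, 21 with every fish labelled in 3 tissues, 12 in scan batch 2 alone and 49 without the arrays nearer to another fish (the last 2 chosen after seeing the data), and 20 to 46 leaving out 1 fish, lowest without 1 immature fish of light group D. The slope of srfbp1 turned to -0.091 with normexp (adjusted p = 0.9995). The testis maturity count (29) was 19 in the authors' table, 39 over all 20 fish and 21 to 28 leaving out 1 pubertal fish. The pituitary count (0) was 1 in light groups A and B alone and 5 with the methods' unadjusted t-test (1.75% of all probes). Diet groups D and E gave 0 to 4 leaving out 1 fish, 4 without E replicate 236 (3.91% of all probes). The tissue count (26) was 16 with normexp and 42 with the fish number as a replicate block (50.8% of all probes). The interaction count (14) was 7 in the authors' table, 16 with the fish as a random replicate block, and 9 to 14 leaving out 1 pubertal fish. Splits in both tissues (12) were 38 in the uncentred levels of the immature fish. The settings that drop fish or arrays test fewer of them, and the background filter leaves fewer members to keep. For the other settings the cause was not tested. Most counts here have no share over all probes beside them. A change in the members then cannot be told from a change over the whole array. Dim probes limit the low side of many ranges.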

Other observations

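The 3 fish left out by the rule were matched by their labels too. Over the 200 probes next in the order, 1 of their 3 pituitary arrays lay nearest to the testis array of its own number, and none of their 3 adipose arrays did. With the pituitary 1 of the 3 adipose arrays lay nearest to its own number, at a correlation of 0.534, and the other 2 had -0.066 and 0.087 with their own and 0.574 and 0.668 with another fish. Over the 42286 probes outside the set, 1 of the 17 testis arrays lay nearest to the pituitary array of its own fish.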
